A study of Mus musculus with 16 samples.

Results

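The 10 genes described here encode the molecules with which circulating leukocytes and the vessel wall hold on to each other. They are the vascular ligands Vcam1 and Icam1, the selectins Sele and Selp, the selectin ligand Selplg, and the integrin chains Itgb2, Itgal, Itgax, Itga4 and Itgb1. They were chosen by name from the 55359 lines of the deposited count table, and all 10 were found there. All 10 also passed the filter on low counts that left 10634 genes for testing.

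The material was frozen brachiocephalic artery, which leaves the aortic arch and forms plaques in hyperlipidaemic mice, and polyadenylated RNA was counted in 16 libraries. Every mouse was female and lacked Apoe, the apolipoprotein that clears cholesterol-carrying particles from plasma. The 4 groups, with 4 mice in each, were Apoe-/-Mif-/- after 42 weeks of diet, Apoe-/- after 42 weeks, Apoe-/-Mif-/- after 24 weeks and Apoe-/- after 24 weeks. Mif encodes macrophage migration inhibitory factor, a cytokine that also acts as a chemokine. All mice ate chow up to 6 weeks of age and then a high-cholesterol diet (0.2% cholesterol, 21.2% total fat), so the groups were 48 and 30 weeks old at the end and diet time cannot be told apart from age. There was no wild-type or chow-fed group. Each library held lysate pooled from 3 to 4 sections of 5 µm from 1 mouse, with whole vessels scraped from the slide, and is numbered 1 to 4 within its group in the order of the sample records.

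Leukocytes leave the blood in steps. E-selectin (Sele) and P-selectin (Selp) on activated endothelium catch glycans on P-selectin glycoprotein ligand-1 (Selplg), so that cells roll. Chemokines then switch integrins on the leukocyte to a high-affinity state, and αLβ2 (Itgal with Itgb2) binds ICAM-1 (Icam1) while α4β1 (Itga4 with Itgb1) binds VCAM-1 (Vcam1), which brings the cell to arrest. The αX chain (Itgax, CD11c) pairs with the same β2 chain, binds complement fragments and fibrinogen, and is found on dendritic cells and on some macrophages, foam cells among them. In atherosclerosis, VCAM-1 and ICAM-1 are displayed by endothelium over lesion-prone wall, and smooth muscle cells of plaques can make VCAM-1 as well.

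Upstream sequence was found for 6 of the 10 genes in RefSeq's promoter table, build GRCm38.p6, and the 250 bases before the annotated start are shown for the 3 genes whose groups did not overlap in 1 comparison (Itgax, Icam1 and Selp) and for Sele, which lies near Selp. All 4 lie on the plus strand, and the files themselves were aligned to another build, GRCm39. Capitals mark a κB-like motif, GGANATTCC, and an AP-1 motif, TGANTCA, each searched on both strands and chosen after the sequences had been read.
Itgax, chr7:128129300-128129549: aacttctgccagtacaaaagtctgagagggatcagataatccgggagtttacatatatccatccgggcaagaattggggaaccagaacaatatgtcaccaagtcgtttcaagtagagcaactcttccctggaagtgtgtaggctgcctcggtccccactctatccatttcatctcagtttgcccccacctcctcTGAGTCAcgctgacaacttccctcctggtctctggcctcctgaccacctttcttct
Icam1, chr9:21015690-21015939: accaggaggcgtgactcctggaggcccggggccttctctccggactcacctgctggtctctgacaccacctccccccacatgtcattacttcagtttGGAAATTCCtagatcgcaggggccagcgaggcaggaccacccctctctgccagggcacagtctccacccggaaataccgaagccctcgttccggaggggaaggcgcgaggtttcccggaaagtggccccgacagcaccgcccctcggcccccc
Selp, chr1:164115014-164115263: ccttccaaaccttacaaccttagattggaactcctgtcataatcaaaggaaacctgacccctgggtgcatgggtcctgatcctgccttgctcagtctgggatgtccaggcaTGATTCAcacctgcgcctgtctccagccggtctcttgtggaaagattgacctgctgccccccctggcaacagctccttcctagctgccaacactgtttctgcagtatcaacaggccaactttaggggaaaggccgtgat
Sele, chr1:164047984-164048233: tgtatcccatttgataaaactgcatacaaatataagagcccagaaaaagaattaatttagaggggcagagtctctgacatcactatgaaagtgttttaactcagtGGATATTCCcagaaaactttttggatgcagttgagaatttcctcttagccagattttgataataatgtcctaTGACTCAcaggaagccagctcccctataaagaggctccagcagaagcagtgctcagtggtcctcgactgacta
The κB-like motif lay in the windows of Icam1 (bases 98 to 106) and Sele (bases 106 to 114), and it was present in 0.819% of 32851 windows of the same length upstream of mouse genes. The AP-1 motif, which reads the same on both strands apart from its centre, lay in those of Itgax (bases 195 to 201), Selp (bases 112 to 118) and Sele (bases 178 to 184), against 6.749% of all windows. The windows of Itga4 and Itgb1, not shown, held neither motif. The motifs did not overlap, and a match describes letters only. Because the motifs were chosen from these sequences, the shares over all windows are no test of enrichment. Itgax lies between Itgam and Itgad, which encode other β2 partners. Vcam1, Selplg, Itgb2 and Itgal were not matched in that table.

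Library totals ran between 378066 and 8649525 counts, and mitochondrial transcripts took between 0.751% and 10.2% of them. Mif had at most 19.9 CPM (counts scaled to a common library size) in the 8 Apoe-/-Mif-/- libraries. In the Apoe-/- libraries it had 105 to 301 CPM in 7 and 23.2 CPM, on 11 counts, in library 1 of 42 weeks. Libraries of the same group were about as alike as libraries of different groups: the median Spearman correlation of log2 CPM was 0.531 for the 24 pairs from a shared group and 0.529 for the 96 pairs from different groups. The column names carry a letter B or C, read here as plate rows, although the names themselves do not say so. The 4 Apoe-/-Mif-/- libraries of 24 weeks carried C and the remaining 12 carried B. Row, in this sense, and group therefore cannot be told apart in any comparison that involves that group. Library 4 of Apoe-/- at 24 weeks held 4541 CPM of 10 T cell markers and 694 CPM of 6 thymocyte markers, against at most 287 CPM and 323 CPM in the other 15 libraries, and library 1 of Apoe-/- at 42 weeks was the shallowest. Among lists of other cells, neutrophil markers summed to between 0.507 and 44.9 CPM over the 16 libraries, B cell markers to between 0.295 and 105 CPM and fibroblast markers to between 2954 and 34144 CPM.

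Set side by side per kilobase of exon, with exon lengths from GENCODE vM21, the shared β chains had the highest medians of the 10 transcripts over all 16 libraries pooled. Each length is that of all annotated exons of the gene merged, whichever isoform was expressed. The median was 106 CPM per kb for Itgb2 and 84.6 CPM per kb for Itgb1. Vcam1 (30.4 CPM per kb), Itgax (27.9) and Selplg (10.1) followed, then Icam1 (3.17) and Selp (1.32). The medians of Itga4 (0.404 CPM per kb), Sele (0.387) and Itgal (0.215) were the lowest. The order differed between groups. In Apoe-/- at 42 weeks Itgax came second by median, at 159 CPM per kb, between Itgb2 (290.0) and Itgb1 (97.9), and in Apoe-/- at 24 weeks Itgb1 (68.9 CPM per kb) stood above Itgb2 (64). Itgb2 and then Itgb1 led in both Apoe-/-Mif-/- groups. The ranges of neighbours in the pooled order overlapped in every case, for example 6.95 to 730.0 CPM per kb for Itgb2 and 17.0 to 199.8 CPM per kb for Itgb1. The order depends on these lengths. By median CPM alone Itgb1 (345) stood above Itgb2 (324) and Vcam1 (270), and Itga4 (5.64) stood close to Selp (5.83). Sele and Itgal had fewer than 10 counts in 12 of the 16 libraries each, and Itga4 was at 0 in 4.

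**Figure D1:**
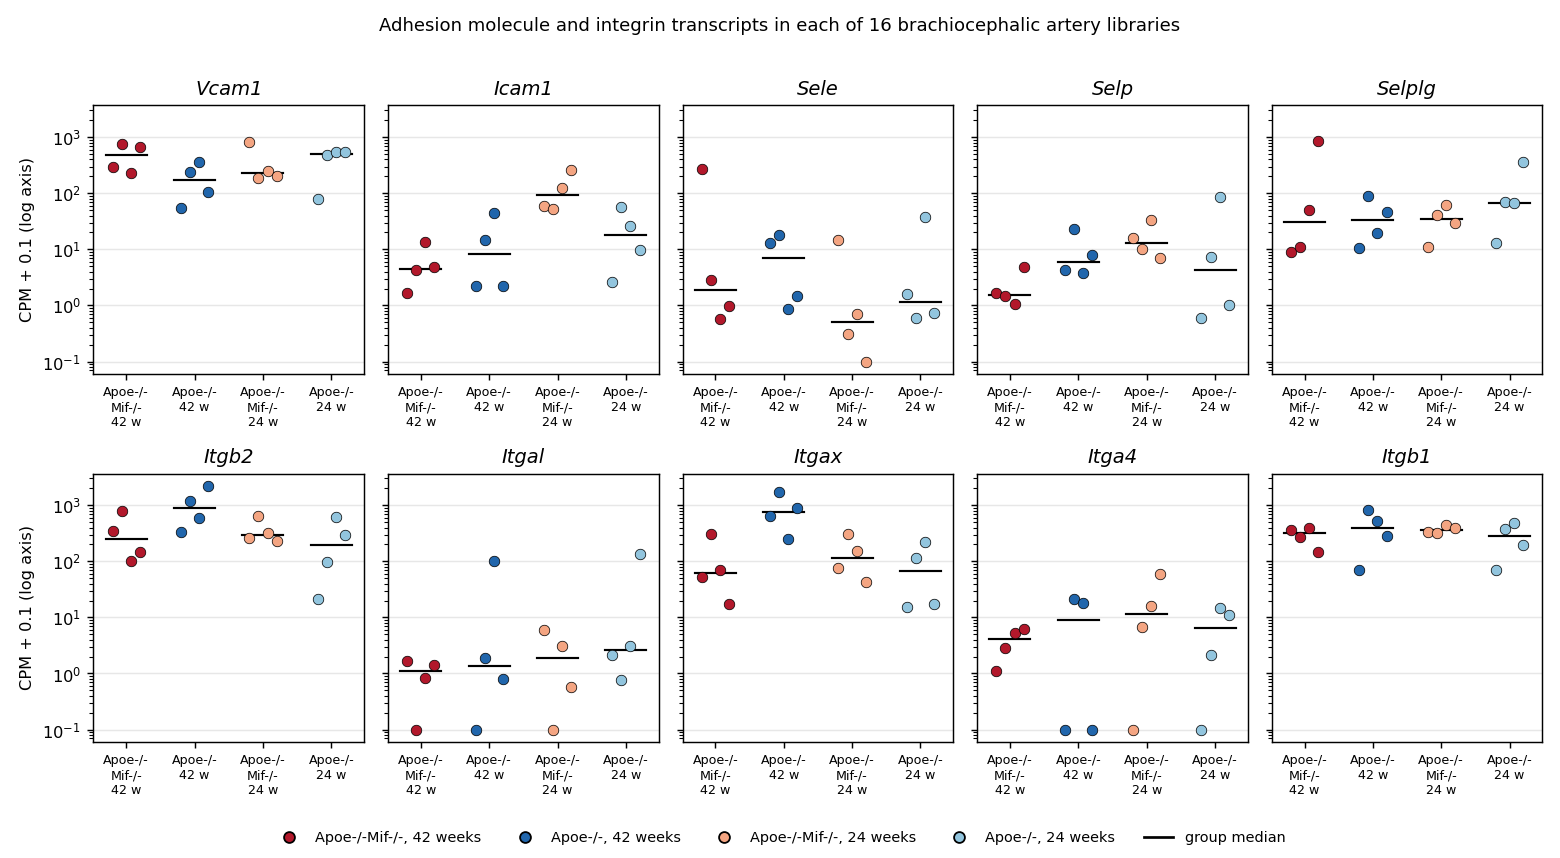
Level of each of the 10 transcripts in every library, as CPM with 0.1 added on a log axis. Points are single mice, black lines are group medians, and the groups are Apoe-/-Mif-/- and Apoe-/- at 42 weeks followed by the same pair at 24 weeks. Itgax lay between 250 and 1693 CPM in Apoe-/- at 42 weeks and between 15.2 and 219 CPM in Apoe-/- at 24 weeks, while most other genes spread over more than their group medians differ.

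None of the 10 genes passed an adjusted p under 0.05 in edgeR's quasi-likelihood test in any of 5 comparisons. The background was low as well. Among the 10634 tested genes, 0.047% were called for Mif deletion at 24 weeks, 0.000% at 42 weeks, 0.000% for 42 against 24 weeks in Apoe-/-, 0.122% for 42 against 24 weeks in Apoe-/-Mif-/-, and 0.686% for the interaction, the difference between the Mif effects at the 2 diet times. At an unadjusted p under 0.05, the 10 genes gave none at 24 weeks (all genes 7.33%), Itgal and Itgax for Mif deletion at 42 weeks (17.3%), and Itgb2 and Itgax for 42 against 24 weeks in Apoe-/- (12.2%). They gave Icam1, Sele and Selplg for 42 against 24 weeks in Apoe-/-Mif-/- (13.1%), and Selplg and Itgax for the interaction (14.2%). Groups did not overlap at all for Itgax between 42 and 24 weeks in Apoe-/-, where it was higher at 42 weeks, against 4.16% of all genes in either direction and 1.06% higher. They did not overlap for Icam1 and Selp between 42 and 24 weeks in Apoe-/-Mif-/-, where both were lower at 42 weeks, against 4.38% of all genes in either direction and 3.03% lower. No member's groups were free of overlap in the genotype comparisons, against 3.84% of all genes at 24 weeks and 2.20% at 42 weeks. The values below are therefore levels in single mice and the spread around them, and in bulk sections fewer cells of a type and less RNA per cell cannot be told apart.

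**Figure D2:**
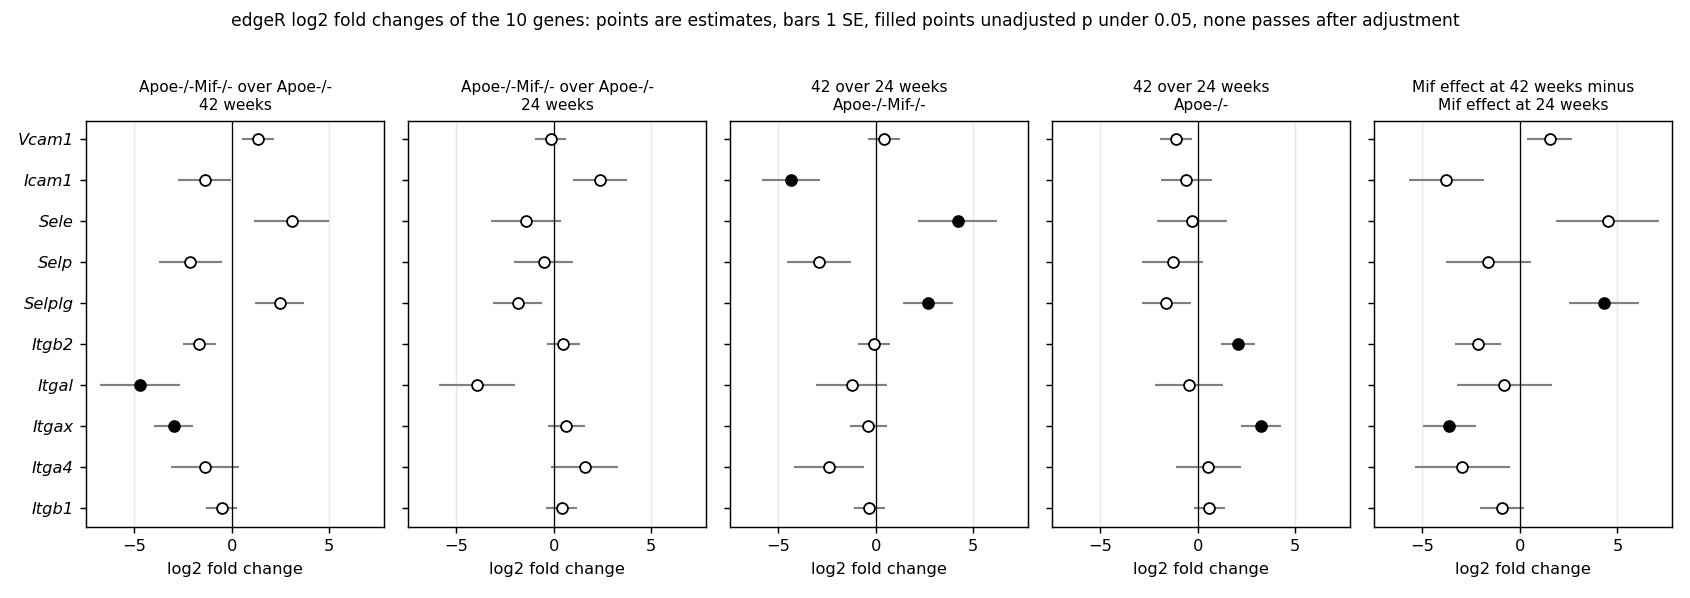
Fold changes of the 10 genes in the 5 comparisons, on a log2 scale, from edgeR's fit of all 16 libraries. Points are estimates and bars are 1 standard error (SE). Filled points had an unadjusted p under 0.05, and none passed after adjustment over all genes. The leading entries are Itgax at -2.98 for Mif deletion at 42 weeks and at 3.24 for 42 against 24 weeks in Apoe-/-, and Icam1 at -4.35 for 42 against 24 weeks in Apoe-/-Mif-/-.

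Itgax, the αX chain, had the smallest unadjusted p of the 10 in edgeR's test. It had 51.9, 301, 71.1 and 17.2 CPM in the Apoe-/-Mif-/- libraries at 42 weeks, against 645, 1693, 250 and 879.6 CPM in the Apoe-/- libraries at 42 weeks. At 24 weeks it had 76.6, 302, 151 and 43.0 CPM in Apoe-/-Mif-/- and 15.2, 116, 219 and 16.9 CPM in Apoe-/-. The 4 Apoe-/- libraries of 42 weeks held the 3 highest levels of all 16, and their lowest library overlapped with the highest of both Apoe-/-Mif-/- groups but lay above every Apoe-/- library of 24 weeks. By median the order was Apoe-/- at 42 weeks (762 CPM), Apoe-/-Mif-/- at 24 weeks (114), Apoe-/- at 24 weeks (66.7) and Apoe-/-Mif-/- at 42 weeks (61.5), and the last 3 overlapped widely.

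For Mif deletion at 42 weeks the log2 fold change of Itgax was -2.98 ± 1.00 (SE), with an edgeR adjusted p of 0.176 and an unadjusted p of 0.00511. Between 42 and 24 weeks in Apoe-/- it was 3.24 ± 1.01, with an edgeR adjusted p of 0.322 and an unadjusted p of 0.00281. These comparisons share the Apoe-/- libraries of 42 weeks, so 1 high group enters both. In Apoe-/-Mif-/-, 42 against 24 weeks gave -0.39 ± 0.93 (edgeR adjusted p 0.899), and for Mif deletion at 24 weeks 0.64 ± 0.93 (edgeR adjusted p 0.966). The interaction was -3.62 ± 1.35 (edgeR adjusted p 0.203). DESeq2 called Itgax for 42 against 24 weeks in Apoe-/- (log2 fold change 3.82, adjusted p 0.0272), where it called 3.09% of all genes that it tested. It did not call Itgax for Mif deletion at 24 weeks (background 2.34%), for Mif deletion at 42 weeks (6.99%), for diet time in Apoe-/-Mif-/- (5.17%) or for the interaction (4.39%). Both of its leading fold changes kept their sign in all 16 fits that left out 1 library, between -4.21 and -2.42 for Mif deletion at 42 weeks and between 2.78 and 4.13 for diet time in Apoe-/-. Both also lie within plate row B, where the 12 libraries alone gave -3.02 and 3.29. Library 1 of Apoe-/- at 42 weeks, the one with 23.2 CPM of Mif, holds the third highest Itgax level, and leaving it out gave -3.14 and 3.49.

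Macrophage markers overlapped between these groups, although their medians differed. The median sum was 9669 CPM in Apoe-/- at 42 weeks and 2897 CPM in Apoe-/- at 24 weeks. In Apoe-/-Mif-/- it was 6891 CPM at 42 weeks and 6111 CPM at 24 weeks. The summed level of 10 macrophage markers (Cd68, Adgre1, Csf1r, Cd14, Fcgr1, Mrc1, C1qa, C1qb, C1qc and Mertk) ran from 3136 to 13779 CPM in Apoe-/-Mif-/- at 42 weeks, against 7763 to 17330 CPM in Apoe-/- at 42 weeks. It ran from 5142 to 9398 CPM in Apoe-/-Mif-/- at 24 weeks, against 1110 to 7990 CPM in Apoe-/- at 24 weeks, and none of the 10 was at 0 throughout a group. Per 1000 CPM of these markers, Itgax stood at 12.1, 21.8, 7.48 and 5.49 CPM in Apoe-/-Mif-/- at 42 weeks, against 83.1, 97.7, 28.3 and 83.8 CPM in Apoe-/- at 42 weeks. At 24 weeks the ratio was 14.9, 32.2, 21.6 and 8.26 in Apoe-/-Mif-/-, against 13.6, 27.4, 27.4 and 10.9 in Apoe-/-. On this scale, chosen after the levels were seen and given without a test, the Apoe-/- libraries of 42 weeks lay above all libraries of Apoe-/-Mif-/- at 42 weeks and above all of Apoe-/- at 24 weeks, by a small margin for library 3. They overlapped with Apoe-/-Mif-/- at 24 weeks, whose library 2 (32.2) lay above that library 3 (28.3). Per 1000 CPM of 8 pan-leukocyte markers, Itgax was 59.5, 57.5, 31.0 and 17.0 CPM in Apoe-/-Mif-/- at 42 weeks and 282, 361, 94.7 and 399 CPM in Apoe-/- at 42 weeks, again without overlap, while Apoe-/- at 24 weeks reached 118 CPM and overlapped. Apoe-/-Mif-/- at 24 weeks reached 126 CPM and overlapped too. Markers of dendritic cells, which also carry CD11c, summed to between 4.18 and 46.9 CPM in Apoe-/-Mif-/- at 42 weeks and between 23.2 and 307 CPM in Apoe-/- at 42 weeks. Clec9a was at 0 in every library of Apoe-/-Mif-/- at 42 and 24 weeks and of Apoe-/- at 24 weeks. Ccl22 of the same list was at 0 in every Apoe-/- library of 42 and 24 weeks. The 307 CPM belonged to library 3 of Apoe-/- at 42 weeks, which had the least Itgax of its group. Library 2 of that group, with the most Itgax, held 48.2 CPM and had 7 of the 8 dendritic cell markers at 0. The part of dendritic cells in the Itgax levels was not tested.

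**Figure D3:**
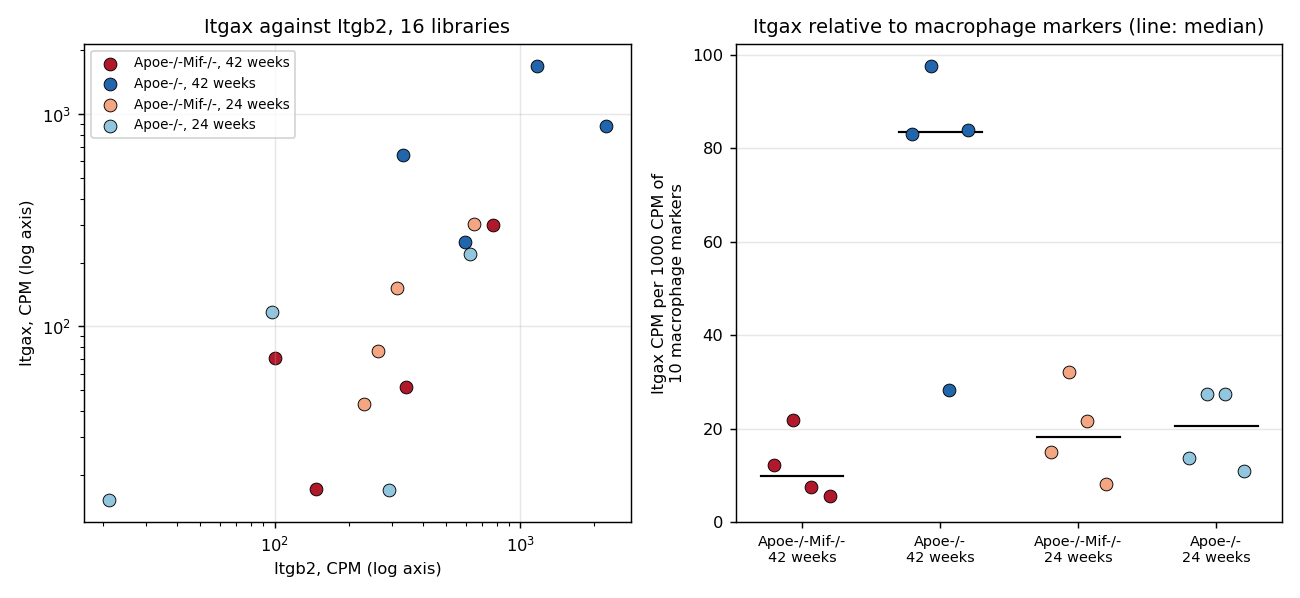
Left, Itgax against Itgb2 in the 16 libraries, both in CPM on log axes. Right, Itgax CPM per 1000 CPM of 10 macrophage markers in each mouse, with the group median as a line, which runs from 28.3 to 97.7 in Apoe-/- at 42 weeks and from 5.49 to 21.8 in Apoe-/-Mif-/- at 42 weeks. The 2 chains correlate across libraries (Spearman 0.803), and 3 Apoe-/- libraries of 42 weeks stand apart in the right panel.

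Itgb2, the β2 chain shared by the leukocyte integrins, overlapped between all groups. It had 344, 777, 100.1 and 147 CPM in Apoe-/-Mif-/- at 42 weeks, against 333, 1172, 597 and 2228 CPM in Apoe-/- at 42 weeks. The 24-week libraries held 265, 645, 316 and 232 CPM in Apoe-/-Mif-/- and 21.2, 97.8, 625 and 293 CPM in Apoe-/-. The highest 2 libraries were Apoe-/- mice of 42 weeks. Per 1000 CPM of the 10 macrophage markers Itgb2, unlike Itgax, overlapped between the genotypes at 42 weeks, with 80.6, 56.4, 10.5 and 46.9 CPM in Apoe-/-Mif-/- and 42.9, 67.7, 67.6 and 212 CPM in Apoe-/-, and Apoe-/- at 24 weeks ran from 19.1 to 189.9 CPM. The log2 fold change was -1.66 ± 0.85 for Mif deletion at 42 weeks (edgeR adjusted p 0.302) and 2.06 ± 0.86 for 42 against 24 weeks in Apoe-/- (edgeR adjusted p 0.334). Without library 4 of Apoe-/- at 42 weeks the first of these was -0.96. In Apoe-/-Mif-/-, 42 against 24 weeks gave -0.09 ± 0.83 (edgeR adjusted p 0.975), and DESeq2's size factors in the same edgeR fit turned it to 0.82.

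Across the 16 libraries, log2 CPM of Itgax and Itgb2 correlated with a Spearman coefficient of 0.803 and a Pearson coefficient of 0.759. Without the 2 libraries farthest from the median of Itgb2 they were 0.710 and 0.666, within the 12 libraries of row B 0.783 and 0.756, and with group means removed the Pearson coefficient was 0.607. The libraries share depth and tissue content, and the coefficients are descriptions. Among all 45 pairs of the 10 genes, 7 had a Spearman coefficient above 0.5 and 1 below -0.5, and the median was 0.224. Icam1 and Sele, whose upstream windows share the κB-like motif, had a coefficient of -0.515. It was -0.327 without the 2 libraries farthest from the median of Icam1 and -0.427 within row B. Sele had fewer than 10 counts in 12 of the 16 libraries, so its ranks rest on few reads. Of the 3 genes whose windows hold the AP-1 motif, Itgax and Selp had 0.515, Itgax and Sele 0.212, and Selp and Sele 0.121. Any part of the motifs in these coefficients was not tested. The amount of Itgax per unit of Itgb2 was not constant: it was 0.151, 0.387, 0.711 and 0.117 in Apoe-/-Mif-/- at 42 weeks and 1.94, 1.44, 0.418 and 0.395 in Apoe-/- at 42 weeks, with overlap.

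Itgal, the αL chain that makes β2 a receptor for ICAM-1, was carried by a pair of libraries. It had 1.54, 0, 0.718 and 1.29 CPM in Apoe-/-Mif-/- at 42 weeks, against 0, 1.77, 100.1 and 0.698 CPM in Apoe-/- at 42 weeks. After 24 weeks of diet the levels were 5.89, 0, 3.04 and 0.463 CPM in Apoe-/-Mif-/- and 2.02, 0.675, 3.05 and 136 CPM in Apoe-/-. Library 4 of Apoe-/- at 24 weeks held 52.9% of all Itgal CPM, and it is the library with 4541 CPM of T cell markers. Library 3 of Apoe-/- at 42 weeks, with 100.1 CPM of Itgal, held 56.1 CPM of T cell markers, the lowest of its group. The log2 fold change was -3.93 ± 1.96 for Mif deletion at 24 weeks (edgeR adjusted p 0.681) and 0.26 without library 4 of Apoe-/-. It was -4.72 ± 2.05 for Mif deletion at 42 weeks (edgeR adjusted p 0.234), and without library 3 of Apoe-/- the gene no longer passed the filter.

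Icam1, the ligand of αLβ2, was highest in Apoe-/-Mif-/- at 24 weeks. It had 1.54, 4.18, 13.2 and 4.73 CPM in Apoe-/-Mif-/- at 42 weeks, against 2.11, 14.5, 43.7 and 2.09 CPM in Apoe-/- at 42 weeks. The libraries of 24 weeks had 60.2, 51.5, 123 and 259 CPM in Apoe-/-Mif-/- and 2.53, 57.4, 25.6 and 9.69 CPM in Apoe-/-. Within Apoe-/-Mif-/- every library of 42 weeks lay below every library of 24 weeks, whereas the genotypes overlapped at both times. The log2 fold change of Icam1 between 42 and 24 weeks in Apoe-/-Mif-/- was -4.35 ± 1.50, with an edgeR adjusted p of 0.238 and an unadjusted p of 0.00626. DESeq2 called this change (log2 fold change -4.30, adjusted p 0.00463), beside 5.17% of all genes that it tested. Leaving out 1 library at a time gave between -5.15 and -3.66. The levels at 42 weeks rest on 3, 3, 55 and 11 counts, and the comparison sets row B against row C, so plate row cannot be told apart from diet time here. For Mif deletion at 24 weeks, which crosses the rows too, the log2 fold change was 2.37 ± 1.37 (edgeR adjusted p 0.788). The interaction was -3.77 ± 1.91 (edgeR adjusted p 0.366). The 10 endothelial markers summed to between 527 and 2804 CPM in Apoe-/-Mif-/- at 42 weeks and between 62.9 and 1462 CPM in Apoe-/-Mif-/- at 24 weeks, and library 4 of 24 weeks, with the most Icam1, held 152 CPM of them. White adipocyte markers moved the other way from Icam1: 7 of them summed to between 32.6 and 9093 CPM (median 4311) in Apoe-/-Mif-/- at 42 weeks, against between 6.55 and 130.1 CPM (median 51.3) in Apoe-/-Mif-/- at 24 weeks, where Lep was at 0 throughout. Within groups the 2 did not keep 1 relation. Library 3 of Apoe-/-Mif-/- at 42 weeks and library 2 of Apoe-/- at 24 weeks had the fewest adipocyte markers and the most Icam1 of their groups. In Apoe-/- at 42 weeks library 3 had the most of both, with 5012 CPM of adipocyte markers. In Apoe-/-Mif-/- at 24 weeks library 1 had the fewest adipocyte markers and library 4 the most Icam1. Mitochondrial shares ran from 1.94 to 8.64% in Apoe-/-Mif-/- at 42 weeks and from 1.08 to 3.06% in Apoe-/-Mif-/- at 24 weeks, and the part of fat or RNA quality in the levels of Icam1, or of Selp in the same comparison, was not tested. In GENCODE vM21, 11.7% of Icam1's exon length is shared with an antisense gene, Gm47079, and reads of the pair cannot be told apart in an unstranded library.

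Vcam1, the ligand of α4β1, was detected in every library, and its groups overlapped in every comparison. It had 293, 763, 233 and 656 CPM in Apoe-/-Mif-/- at 42 weeks, against 54.8, 244, 361 and 103 CPM in Apoe-/- at 42 weeks. Levels at 24 weeks were 822, 185, 247 and 206 CPM in Apoe-/-Mif-/- and 77.8, 479.8, 548 and 538 CPM in Apoe-/-. At 42 weeks the lower 2 libraries were both Apoe-/- and the higher 2 both Apoe-/-Mif-/-, with overlap between them. The log2 fold change for Mif deletion was 1.35 ± 0.82 at 42 weeks (edgeR adjusted p 0.386) and -0.17 ± 0.81 at 24 weeks (edgeR adjusted p 0.985). Diet time gave 0.41 ± 0.81 in Apoe-/-Mif-/- and -1.10 ± 0.82 in Apoe-/- (edgeR adjusted p 0.872 and 0.621). Icam1 had the other sign for Mif deletion at 42 weeks, with a log2 fold change of -1.40 ± 1.34 (edgeR adjusted p 0.611), and neither gene passed.

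Among the selectins, Sele was near the limit of detection in most arteries. It had 267, 2.79, 0.479 and 0.860 CPM in Apoe-/-Mif-/- at 42 weeks, against 12.6, 17.7, 0.780 and 1.40 CPM in Apoe-/- at 42 weeks. In the mice of 24 weeks there were 14.4, 0.205, 0.609 and 0 CPM in Apoe-/-Mif-/- and 1.52, 0.507, 36.9 and 0.625 CPM in Apoe-/-. Library 1 of Apoe-/-Mif-/- at 42 weeks held 74.5% of all Sele CPM, from 520 counts. That library also had 2804 CPM of endothelial markers, the highest of its group. Library 4 of the same group had 1801 CPM of them with 0.860 CPM of Sele, and library 2 of Apoe-/- at 42 weeks had 3899 CPM with 17.7 CPM of Sele. The part of endothelial content in the Sele levels was not tested. The log2 fold change for Mif deletion at 42 weeks was 3.07 ± 1.92 (edgeR adjusted p 0.398) and -2.60 without library 1 of Apoe-/-Mif-/- at 42 weeks. Between 42 and 24 weeks in Apoe-/-Mif-/- it was 4.19 ± 2.02 (edgeR adjusted p 0.370) and -1.36 without it.

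Selp, stored in endothelial and platelet granules, had 1.54, 1.39, 0.958 and 4.73 CPM in Apoe-/-Mif-/- at 42 weeks, against 4.22, 23.0, 3.64 and 7.67 CPM in Apoe-/- at 42 weeks. At the earlier time it stood at 15.7, 10.3, 33.9 and 6.94 CPM in Apoe-/-Mif-/- and 0.505, 7.26, 87.3 and 0.938 CPM in Apoe-/-. Every Apoe-/-Mif-/- library of 42 weeks lay below every one of 24 weeks, on 3, 1, 4 and 11 counts at 42 weeks. Its log2 fold change was -2.92 ± 1.66 (edgeR adjusted p 0.456), and this comparison again crosses the plate rows. For Mif deletion at 42 weeks it was -2.14 ± 1.61 (edgeR adjusted p 0.496), with library 4 of Apoe-/-Mif-/- above libraries 1 and 3 of Apoe-/-. Library 3 of Apoe-/- at 24 weeks held 41.6% of the summed CPM, and without it the log2 fold change for Mif deletion at 24 weeks was 2.5 in place of -0.53 ± 1.52 (edgeR adjusted p 0.983). Platelet markers ranged from 0.860 to 98.7 CPM in Apoe-/-Mif-/- at 42 weeks and from 20.3 to 350 CPM in Apoe-/-Mif-/- at 24 weeks, and their part in the Selp levels was not tested. Exons of Selp overlap those of Gm16587 and Gm16548 on the other strand, over 4.2% and 9.9% of their length.

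Selplg, which encodes the leukocyte ligand of all selectins, had 8.73, 11.1, 50.8 and 839 CPM in Apoe-/-Mif-/- at 42 weeks, against 10.5, 89.8, 19.8 and 46.0 CPM in Apoe-/- at 42 weeks. The 24-week libraries held 11.1, 40.2, 60.7 and 29.6 CPM in Apoe-/-Mif-/- and 13.1, 69.1, 67.3 and 365 CPM in Apoe-/-. All groups overlapped, and library 4 of Apoe-/-Mif-/- at 42 weeks held 48.4% of the summed CPM while its 8 pan-leukocyte markers summed to 1010.2 CPM, against 872 to 5235 CPM over its group. Mif deletion at 42 weeks gave a log2 fold change of 2.44 ± 1.28 (edgeR adjusted p 0.317) and -0.94 without that library. Diet time in Apoe-/-Mif-/- gave 2.68 ± 1.29 (edgeR adjusted p 0.372) and -0.64 without it, and the interaction was 4.30 ± 1.79 (edgeR adjusted p 0.256) and 0.91 without it. The 365 CPM belonged to library 4 of Apoe-/- at 24 weeks, the one with 4541 CPM of T cell markers. Mif deletion at 24 weeks gave -1.86 ± 1.25 (edgeR adjusted p 0.843) and -0.49 without that library. Diet time in Apoe-/- gave -1.62 ± 1.25 (edgeR adjusted p 0.640) and -0.26 without it.

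**Figure D4:**
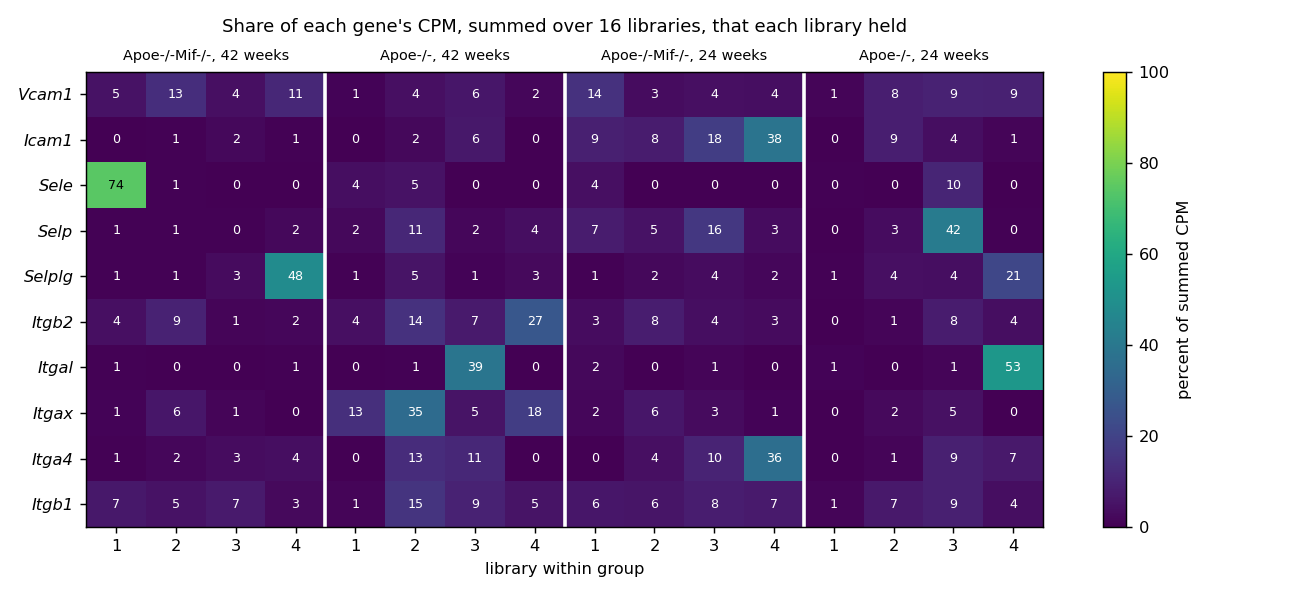
Percentage of each gene's CPM, summed over the 16 libraries, that each library contributed. Colours run from 0 to 100%, rows are genes and columns are mice, in the group order of the plot of levels by library. Single libraries held 74.5% of Sele, 52.9% of Itgal, 48.4% of Selplg and 41.6% of Selp, whereas the top library held 14.1% of Vcam1 and 14.9% of Itgb1.

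The β1 chain Itgb1, present on most adherent cells, had a wider range in the Apoe-/- groups, each of which held 1 low library. It averaged 292 ± 111 CPM in Apoe-/-Mif-/- and 421 ± 319 CPM in Apoe-/- at 42 weeks, and 370.4 ± 56.3 CPM in Apoe-/-Mif-/- and 280.3 ± 186 CPM in Apoe-/- at 24 weeks (SD, n = 4 each). The lowest library of each Apoe-/- group, at 69.6 CPM at 42 weeks and 69.2 CPM at 24 weeks, was the lowest by far. The highest library held 11.7 times the lowest in Apoe-/- at 42 weeks and 7.08 times in Apoe-/- at 24 weeks. In Apoe-/-Mif-/- it held 2.69 times and 1.37 times the lowest at 42 and 24 weeks. Both low libraries were library 1 of their group. That of 42 weeks was the shallowest, with 33 counts of Itgb1, and that of 24 weeks had the highest mitochondrial share, 10.2%. Its log2 fold changes lay between -0.53 and 0.59 in the 4 group comparisons, with edgeR adjusted p between 0.767 and 0.974. Its partner Itga4 was sparse. It had 1.03, 2.79, 5.27 and 6.02 CPM in Apoe-/-Mif-/- at 42 weeks, against 0, 21.0, 17.9 and 0 CPM in Apoe-/- at 42 weeks. After 24 weeks of diet the levels were 0, 6.77, 16 and 59.2 CPM in Apoe-/-Mif-/- and 0, 2.03, 14.4 and 10.9 CPM in Apoe-/-. Its groups overlapped in all 4 group comparisons, among which the log2 fold change of largest size was -2.41 ± 1.78 for 42 against 24 weeks in Apoe-/-Mif-/- (edgeR adjusted p 0.581). The interaction was -2.95 ± 2.43 (edgeR adjusted p 0.625). Log2 CPM of Itga4 and Itgb1 had a Spearman coefficient of 0.695 over the 16 libraries. The exons of Itga4 overlap those of Cerkl, on the other strand, over 8.0% of their length.

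For Mif deletion at 42 weeks, 3 of the 10 genes had a log2 fold change above 0 and 7 below, with a median of -1.39, beside a median of 0.09 over all genes tested, and DESeq2's size factors gave the same split with a median of -1.0. Of all genes tested, 5509 lay above 0 and 5122 below. The 8 pan-leukocyte markers had 1 above and 7 below, with a median of -1.20, so the split was not particular to the members. The 10 macrophage markers had 4 above and 6 below, with a median of -0.15. Mif deletion at 24 weeks had 5 above and 5 below 0, with a median of 0.11 beside -0.18 over all genes. Between 42 and 24 weeks in Apoe-/-Mif-/- 3 lay above and 7 below, with a median of -0.36 beside 0.12, but with DESeq2's size factors 6 lay above and 4 below, with a median of 0.39. Between 42 and 24 weeks in Apoe-/- 4 lay above and 6 below (median -0.38, all genes -0.12), and 5 and 5 with DESeq2's size factors (median -0.07). For the interaction 3 lay above and 7 below under both scalings, with a median of -1.27 beside 0.26 over all genes. There the pan-leukocyte markers had 1 above and 7 below (median -0.96), and the macrophage markers 2 above and 8 below (median -0.98). Comparisons that share a group are not independent of each other.

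Of 67 further genes of leukocyte adhesion in 4 lists, 51 were tested and 0 passed in any comparison by edgeR. Of the 16 tested endothelial and junctional ligands, 7 had a log2 fold change above 0 for Mif deletion at 42 weeks and 9 below, and of the 15 other integrin chains and receptors 8 lay above and 7 below. Of 12 genes of integrin activation 7 lay above and 5 below, and of 8 enzymes of selectin ligand synthesis 6 lay above and 2 below. The smallest p in this comparison belonged to Vwf, which encodes von Willebrand factor of endothelial granules. Vwf had 29.3, 131, 78.8 and 15.5 CPM in Apoe-/-Mif-/- at 42 weeks, against 868, 1036, 721 and 54.4 CPM in Apoe-/- at 42 weeks. Library 4 of Apoe-/- overlapped with Apoe-/-Mif-/-, the other 3 lay far above, and the log2 fold change was -3.40 ± 1.01 (edgeR adjusted p 0.176). The other 2 named there were St3gal6, a sialyltransferase of selectin ligands (4.43 ± 1.77, edgeR adjusted p 0.207), and Itga8, the α8 integrin chain of smooth muscle and other mesenchymal cells (-2.38 ± 1.10, edgeR adjusted p 0.262).

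St3gal6 also had the smallest p at 24 weeks (Mif deletion -3.93 ± 1.76, edgeR adjusted p 0.620), for 42 against 24 weeks in Apoe-/-Mif-/- (6.58 ± 1.97, edgeR adjusted p 0.179) and for the interaction (8.36 ± 2.49, edgeR adjusted p 0.102). It rested on few libraries: 343, 1.39, 1.92 and 95.9 CPM in Apoe-/-Mif-/- at 42 weeks, against 2.11, 14.5, 1.04 and 2.09 CPM in Apoe-/- at 42 weeks, and 3.27, 0.205, 0.406 and 0.925 CPM in Apoe-/-Mif-/- at 24 weeks, against 44.4, 0.338, 1.42 and 24.1 CPM in Apoe-/- at 24 weeks. The others named by smallest p at 24 weeks were Cyth1 (2.64 ± 1.35), which encodes cytohesin-1, a regulator of β2 integrins, and the glycosyltransferase Galnt1 (2.87 ± 1.51). In Apoe-/- the diet-time comparison named Vwf (2.48 ± 0.97), Rasgrp2 (-4.13 ± 1.65), which activates Rap1 upstream of integrins, and the β7 chain Itgb7 (-5.80 ± 2.37). In Apoe-/-Mif-/- the diet-time comparison named the α9 chain Itga9 (-2.61 ± 1.2) and Parvg (-3.97 ± 1.90), which encodes γ-parvin, and for the interaction Vwf (-3.53 ± 1.34) and Itga8 (-2.94 ± 1.51). Over these 9 values edgeR's adjusted p lay between 0.208 and 0.732.

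The transcripts whose pattern over the 16 libraries was most like that of Itgax, by Spearman correlation of log2 CPM, were Rgs1 (0.921), Lgals3 (0.897) and Cyba (0.888), which encode a regulator of G-protein signalling, galectin-3 and a subunit of the phagocyte NADPH oxidase. Lgals3 (0.818) stood among the first 3 for Itgb2 as well, behind the ferritin light chain pseudogenes Ftl1-ps1 and Ftl2-ps (0.821 each), whose reads can come from the parent gene. For Icam1 they were Lztr1 (0.926), Rbm15b (0.894) and Serpina3n (0.879), for Vcam1 Arnt, B4galt3 and Haus1 (0.800 each), and for Itgb1 the smooth muscle actin gene Actg2 (0.879), Mmgt2 (0.868) and Tssc4 (0.841). For Itga4 they were the α11 integrin chain gene Itga11 (0.874), Vcp-rs (0.838), whose reads may come from its parent gene, and Srsf4 (0.836), and for Selplg Apbb2 (0.859), Cpsf3 (0.853) and 5031434O11Rik (0.839). For Selp they were Lims2 (0.868), Capns1 (0.841) and 4930581F22Rik (0.809), for Sele Nudcd2 (0.794), Pebp1 (0.732) and Zfp444 (0.729), and for Itgal Tk2 (0.844), Tmppe (0.832) and Tysnd1 (0.794). These coefficients are the highest among all 10634 tested genes by construction.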

How the data were processed

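Per the labels' protocols, RNA (1 ng) was amplified by Smart-seq2, tagmented with Tn5 and sequenced as 100 bp pairs. This counts reads, not molecules, and carries no strand. Per the submitters' processing notes, the tools were cutadapt 1.18, Trim Galore 0.6.4, FastQC 0.11.5 and STAR 2.5.2b, with build GRCm39. The counting program and annotation are not given in the sources used here.

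The authors deposited whole-number counts per gene symbol. A line with a blank name was left out (at most 0.00257% of a library, exact Clopper-Pearson 95% interval 0.00208 to 0.00315%), as were 2 reporter lines. The authors' second deposited table, variance-stabilised values on a log2 scale, served as an alternative input.

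The main test was the quasi-likelihood test of edgeR 4.0.16 (R 4.3.3) after TMM scaling and filterByExpr with default settings (minimum count 10, total 15). 1 fit held all 16 libraries, with 12 residual degrees of freedom and Benjamini-Hochberg adjustment over 10634 genes. SE is the log2 fold change divided by the square root of the F statistic. CPM were computed from counts and TMM factors. DESeq2 1.42.0 and limma 3.58.1 gave alternatives. The scripts were tested on simulated data.

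The labels name a different mouse for each library. Replicate numbers follow accession order and pair nothing. The genes, 4 pathway lists and 13 marker lists were chosen with earlier results of these data known. Named genes were the 10 members, the pathway genes called and the 3 with the smallest p per comparison, and the 3 transcripts most alike per member. Lengths and exon overlaps came from GENCODE vM21, and no coordinates from it are printed.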

Additional observations from a re-analysis of the deposited data

Results flagged for a closer look

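Among 40 sets of 4 libraries (10 genes in 4 groups, on log2 CPM), 1 had a library whose gap to the nearest of the others exceeded Dixon's 95% critical value for 4 samples. This was Vcam1 in Apoe-/- at 24 weeks, where library 1 had 77.8 CPM and the other 3 had 479.8, 548 and 538 CPM, with a gap of 0.932 of the range. Chance alone gives about 1 such set in 20. The same library had the highest mitochondrial share of the 16, 10.2%. It also had the most striated muscle markers of the 16 libraries (7 genes, 5389 CPM, against 35.5 to 2238 CPM in the other 3 of its group) and the fewest smooth muscle markers (8 genes, 766 CPM, against 2774 to 11576 CPM). Its 7 white adipocyte markers summed to 7791 CPM, the most of its group. The part of tissue content or RNA quality in this value was not tested.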

How the results depend on the processing

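No paired analysis was possible because the labels carry no replicate numbers, and the numbers used here follow accession order. The count of genes called depended on the method more than anything else. In the order Mif deletion at 24 weeks, at 42 weeks, 42 against 24 weeks in Apoe-/-, the same in Apoe-/-Mif-/-, and interaction, edgeR called 5, 0, 0, 13 and 73 genes, DESeq2 262, 709, 330, 539 and 480, and edgeR without a filter on low counts 117, 150, 18, 419 and 426. DESeq2's size factors in edgeR gave 0 for Mif deletion at 24 weeks and 22 for 42 against 24 weeks in Apoe-/-Mif-/-. limma voom gave 0 for Mif deletion at 24 weeks, for diet time in Apoe-/-Mif-/- and in the interaction, and limma on the deposited variance-stabilised values gave 0, 2 and 0. Fits of only the 2 groups compared gave 0 at 24 weeks and 25 at 42 weeks. Leaving out both library 4 of Apoe-/- at 24 weeks and library 1 of Apoe-/- at 42 weeks, an alternative chosen after seeing the data like that of plate row B, gave 1 call for Mif deletion at 24 weeks and none (0) in the interaction. Leaving out 1 library at a time gave 0 to 21, 0 to 1, 0, 0 to 36 and 0 to 124 genes in the same order, and no member was called in any of those fits. The cause was not tested.

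Of the members, DESeq2 called Itgax for 42 against 24 weeks in Apoe-/- (3.82) and Icam1 for 42 against 24 weeks in Apoe-/-Mif-/- (-4.30), and it gave Sele, Selplg and Itgal no p-value. No other tool or setting called a member. Fold changes (log2) that changed sign were mostly those near 0 or resting on 1 library. With DESeq2's size factors in edgeR these were Sele for 42 against 24 weeks in Apoe-/- (0.29) and, for 42 against 24 weeks in Apoe-/-Mif-/-, Itgb2 (0.82), Itgax (0.62) and Itgb1 (0.16). DESeq2 itself turned the same 4, to 0.31, 0.82, 0.62 and 0.16. That scaling moves the median of all genes by 0.06, 0.19, 0.28, 0.42 and 0.11 in the 5 comparisons. limma voom turned Selp for Mif deletion at 24 weeks (1.30), Sele (0.74) and Selp (0.42) for 42 against 24 weeks in Apoe-/-, Itgal for 42 against 24 weeks in Apoe-/-Mif-/- (0.10) and Itgal for the interaction (0.28). The variance-stabilised values, which held 9 of the 10 genes, turned Selp for Mif deletion at 24 weeks (0.88), Itga4 (0.30) and Itgb1 (0.057) for Mif deletion at 42 weeks, Sele (0.61), Selp (0.40) and Itga4 (-0.075) for 42 against 24 weeks in Apoe-/-, and Itgb2 (0.063) and Itgb1 (0.047) for 42 against 24 weeks in Apoe-/-Mif-/-. The fit of only 2 groups turned Itgb2 for 42 against 24 weeks in Apoe-/-Mif-/- (0.012). Without both libraries named, Itgal for Mif deletion at 24 weeks was 0.26, and Selplg and Itgal for 42 against 24 weeks in Apoe-/- were 0.059 and 4.14.

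Leaving out 1 library turned the sign in 18 of 50 results. For Mif deletion at 24 weeks the fits ranged from -0.94 to 0.026 for Vcam1, from -4.93 to 2.07 for Sele, from -1.15 to 2.5 for Selp and from -4.82 to 0.26 for Itgal. For Mif deletion at 42 weeks they ranged from -2.60 to 4.18 for Sele, from -0.94 to 3.21 for Selplg and from -0.87 to 0.040 for Itgb1. Between 42 and 24 weeks in Apoe-/- they ranged from -1.87 to 0.32 for Icam1, from -1.17 to 3.18 for Sele, from -2.12 to 1.72 for Selp, from -0.83 to 3.74 for Itgal and from -0.13 to 1.22 for Itga4. In Apoe-/-Mif-/-, 42 against 24 weeks, they ranged from -1.36 to 7.64 for Sele, from -0.64 to 3.21 for Selplg, from -0.73 to 0.43 for Itgb2 and from -1.55 to 0.35 for Itgax. For the interaction they ranged from -1.09 to 7.97 for Sele and from -5.01 to 0.069 for Itgal. No fold change turned within plate row B alone or without the filter on low counts, and scaling by library totals alone moved no group mean of a member by more than 1 SD between mice, though it moves levels in single libraries. Depth limits Sele, Itgal, Itga4 and Selp most, since 1 read is worth between 0.109 and 2.11 CPM. The interval for the line with a blank name covers counting error only, while each SE and SD includes the spread between mice.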
